A study of Mus musculus with 14 samples.

Results

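The let-7 family of microRNAs (miRNAs) was followed through the small intestinal epithelium of the mouse, in cells sorted by the fluorescence of a Sox9-eGFP reporter. The family was taken as 10 entries of the deposited table at their annotated start: mmu-let-7a-1-5p, mmu-let-7b-5p, mmu-let-7c-1-5p, mmu-let-7c-2-5p, mmu-let-7d-5p, mmu-let-7f-1-5p, mmu-let-7f-2-5p, mmu-let-7g-5p, mmu-let-7i-5p and mmu-mir-98-5p, given below without the prefix for the mouse. They stand for 8 mature sequences and are 10 of 2030 entries in the table, of which 534 are at an annotated start. let-7e, and the second let-7a copy, were left out of the list and are given for comparison. The second let-7a copy also enters the let-7a average used in the family sum and shares below. The study split small intestinal cells of C57BL/6J mice into 4 populations by reporter brightness, named Negative, Sublow, Low and High, with 3 small RNA libraries each, and added 2 libraries of Non-sorted cells. All groups are of the same strain, and the series title names the reporter for all of them. In this reporter mouse, Low cells have been described as crypt stem cells, Sublow cells as dividing progenitors, High cells as rich in enteroendocrine cells and Negative cells as mostly differentiated. The gates themselves, and whether libraries of a population come from separate mice, are not stated in the labels, so a p-value here covers no more than library-to-library spread.

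let-7 miRNAs are short RNAs cut from hairpin precursors by Drosha and Dicer, and they guide Argonaute proteins to messenger RNAs that match their seed, bases 2 to 8. The family was found in Caenorhabditis elegans as a timer of development, and in mammals it rises as cells differentiate, while the RNA-binding protein LIN28 blocks the maturation of its precursors in embryonic cells. Known mammalian targets include Ras genes, Hmga2 and Lin28 itself, and in the mouse intestine LIN28 and let-7 act against each other in epithelial growth.

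The mature members are shown because they share a seed and differ only downstream of it, apart from the first base, so that most of the family could pair with the same seed sites. Sequences are from RefSeq (build GRCm38.p6), 5′ to 3′, with the seed in capitals, and all 10 entries matched a RefSeq name.
let-7a-5p: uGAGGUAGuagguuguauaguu
let-7b-5p: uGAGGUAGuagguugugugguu
let-7c-5p: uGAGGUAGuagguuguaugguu
let-7d-5p: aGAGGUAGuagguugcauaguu
let-7f-5p: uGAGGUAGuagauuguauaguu
let-7g-5p: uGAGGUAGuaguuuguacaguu
let-7i-5p: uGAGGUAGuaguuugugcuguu
miR-98-5p: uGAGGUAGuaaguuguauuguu

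Counted from the 5′ end and written as the let-7a base, the position and the other member's base, let-7c differs by A19G and let-7b by A17G and A19G. let-7f differs by G12A, let-7d by U1A and U16C, let-7g by G12U and U18C, and miR-98 by G11A and A19U. let-7i is the most distant from let-7a, with G12U, A17G, U18C and A19U. Over the 28 pairs of members the mismatches number 1 to 6 of 22 bases, and 3 pairs differ at a single base. Reads with an error at such a base could be listed under a neighbour, a limit that bears on every value below.

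The hairpins lie at several places in the genome. On mouse chromosome 13, minus strand, let-7a-1, let-7f-1 and let-7d form a cluster, with the mature sequences at chr13:48538239-48538260, chr13:48537889-48537910 and chr13:48536078-48536099 in GRCm38.p6. let-7c-2 lies 621 bases from let-7b, whose mature sequence is at chr15:85707325-85707346, and let-7f-2 lies 785 bases from miR-98, at chrX:151913229-151913250. let-7c-1, at chr16:77599672-77599693, lies 656 bases from mir-99a. let-7g, at chr9:106178846-106178867, and let-7i, at chr10:122985698-122985719 on the minus strand, have no other family hairpin beside them.

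Values are miRNA reads scaled to a fixed library total (RPM), so every library has the same total and a miRNA can change because others do. Depth, estimated from the steps between low values, was 1.89 to 16.4 M reads (M for mega; median 5.01 M), and a listed 0 means fewer than about 10 reads. The epithelial miR-200 family summed to 24799.5 to 72931 RPM over the sorted libraries, whereas the erythroid markers miR-451 and miR-144-3p were at 0 in all 14 libraries. Haematopoietic markers summed to 6.51 to 213 RPM and endothelial ones to at most 17.1 RPM, with miR-142-3p at 0 in every library. Endocrine markers led by miR-375 summed to 2551 to 3634 RPM in Negative cells, 24003 to 25588 in Sublow, 82016 to 106946 in Low and 151003 to 172443 in High. The part that these differences in cell makeup have in the family's values was not tested. Entries of the miR-290 and miR-302 clusters, known from embryonic stem cells, were listed in 7 libraries (up to 3207 RPM in sum, in High replicate 2) and at 0 in the other 7. High libraries carried the lane labels L000 and L008, and Negative and Sublow libraries L005 and L006, so High shares no lane label with either. Every library labelled L000 also carries the word Combo, whose meaning is not stated, so L000 may not be a single lane. Low libraries were in L000 and L005, with Low replicate 1 the only one in L005. A fit with lane as a term compares High with Negative or Sublow through them. In that fit, comparing Low or High with Negative or Sublow rests on Low replicate 1. High replicate 3, alone in L008, adds nothing to its comparisons.

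The family took a smaller share of the miRNA reads the dimmer the cells, apart from the brightest population. Its sum, with copies of one mature sequence averaged, was 110806, 114847 and 114446 RPM in Negative cells and 161756, 175865 and 158181 RPM in Sublow cells. It was 224132, 216835 and 238667 RPM in Low cells, 202338, 175555 and 212310.4 RPM in High cells, and 140796 and 116505 RPM in Non-sorted cells. As a share of the library this was 11.3% ± 0.223 in Negative and 16.5% ± 0.935 in Sublow. It was 22.7% ± 1.11 in Low and 19.7% ± 1.90 in High (SD, n = 3 each). The listed entries summed without averaging took 14.6, 21.8, 29.85 and 26% as means, in the same order. Those values are nearer the share if reads were split between copies, which the sources used here do not state. Negative, Sublow and Low libraries did not overlap, and High libraries overlapped none of the other sorted populations except that High replicate 2 lay just under Sublow replicate 2. In sorted bulk RNA, fewer cells of a type and less RNA per cell cannot be told apart.

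The library total moved at the same time. miR-192, miR-194 and miR-215, miRNAs that hepatocyte nuclear factors drive in gut epithelium, together took 59.9% ± 0.172 of the reads in Negative cells and 44.5% ± 1.02 in Sublow cells. They took 20.7% ± 1.51 in Low cells and 17.8% ± 1.59 in High cells (SD, n = 3 each). Not all of them rose. In Negative against Low, miR-215-5p, miR-194-1-5p and miR-194-2-5p were higher by 2.82, 3.68 and 2.32 on the log2 scale. miR-192-5p was lower there (-0.5). After rescaling each library by the median ratio over entries listed in every library, the family sum was 151773 ± 3593 in Negative, 158598 ± 5452 in Sublow, 165201 ± 9097 in Low and 179863 ± 17645 in High. High against Low, lower in RPM by 0.21 on the log2 scale of the group means, was higher by 0.12 after that rescaling. With the total taken without those 3 miRNAs, Sublow against Low reversed to 0.06, High against Negative to -0.24 and High against Sublow to -0.32. The family sum has no test of its own here, and how far each scale measures amount per cell was not tested.

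**Figure D1:**
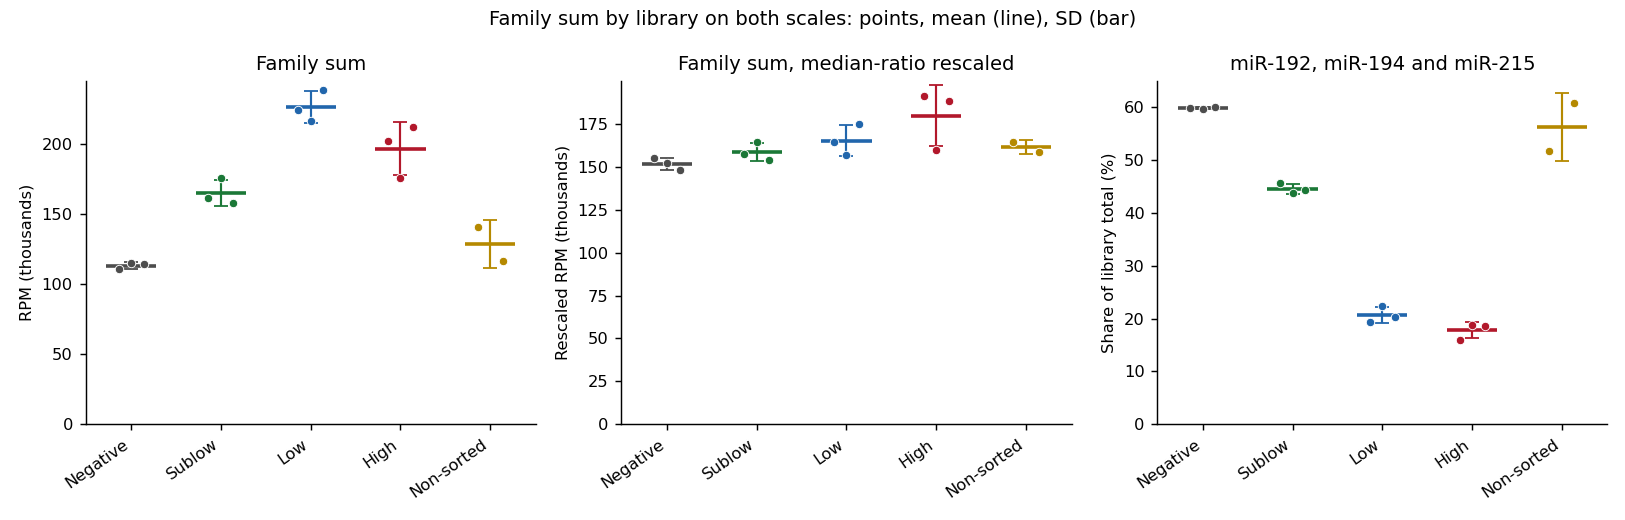
Family sum per library in RPM (left) and after median-ratio rescaling (middle), and the percent of the library taken by miR-192, miR-194 and miR-215 (right). Points are libraries, lines means and bars SD. The sum spans 113366 RPM in Negative to 226545 RPM in Low as group means, but 151773 to 179863 after rescaling.

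All 10 members passed the filter on low values, and all 10 differed among the 4 sorted populations in RPM (limma moderated F test, adjusted p of 1.2e-07 for let-7d-5p to 0.000741 for let-7g-5p), where 72.3% of the 588 tested entries did. Negative cells were lower than Low cells in 10 of 10 members, against 49.5% of all entries, with a median log2 fold change of -1.15 for the members and -0.90 for all entries. Negative cells were lower than Sublow cells in 9 members (26.9% of all entries, medians -0.79 and -0.37), with let-7b-5p the one not called. Sublow cells were lower than Low cells in 6 members (24.3% of entries), although their median of -0.30 was nearer 0 than the -0.43 of all entries. High cells were lower than Low cells in 7 members (20.1% of entries, medians -0.49 and -0.11). No member was called higher in any of these 4 comparisons. The share of all entries called higher was 16.5% in Negative against Low, 8.67% in Negative against Sublow, 10.4% in Sublow against Low and 7.99% in High against Low.

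High cells against Negative cells had 9 members higher and 0 lower, against 43.9% and 22.4% of all entries, with medians of 0.71 and 0.57, and let-7g-5p was the one not called. High cells against Sublow cells gave calls in both directions. let-7b-5p, let-7c-1-5p and let-7c-2-5p were higher (28.1% of entries were) and let-7d-5p, let-7f-1-5p, let-7f-2-5p, let-7g-5p and miR-98-5p were lower (22.4% of entries were). With the lane term 0 members were higher and 1, let-7g-5p, was lower, and Sublow against Low had 3 members lower instead of 6. These comparisons share libraries, so their counts are not independent of each other.

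let-7b and let-7c were the most abundant members, and in RPM both set the brighter populations apart from the dimmer ones. let-7b-5p had 44365, 46371 and 48094 RPM in Negative cells, 53300, 55886 and 46405 in Sublow, 85493, 69034 and 93868 in Low and 87923, 72852 and 96704 in High. Low and High libraries overlapped, as did Negative and Sublow libraries, and no library of the first pair reached the second. Negative against Low gave a log2 fold change of -0.83 (adjusted p = 0.000246), Sublow against Low -0.67 (adjusted p = 0.0029) and High against Low 0.05 (adjusted p = 0.822). let-7c-1-5p had 21713, 23165 and 21951 RPM in Negative cells, 33126, 37491 and 31235 in Sublow, 49654, 45613 and 53003 in Low and 46177, 40619.9 and 49406 in High. Here Negative and Sublow did not overlap (-0.60, adjusted p = 0.00063), whereas Low and High did. let-7c-2-5p carries the same mature sequence and stood 5.44 to 15.5% above let-7c-1-5p throughout, so neither copy can be credited with a change. In Negative against Low let-7b-5p was at 0.05 by median ratio (adjusted p = 0.774) but -0.96 by quantiles (adjusted p = 1.62e-05). let-7c-1-5p stayed lower there by median ratio (-0.27, adjusted p = 0.0256). With the total without miR-192, miR-194 and miR-215, let-7b-5p and both let-7c copies were not called in Negative against Low or High against Negative.

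In RPM the entries named for the chromosome 13 cluster were highest in Low cells and did not follow let-7b in High cells. let-7a-1-5p had 8299, 8265 and 7882 RPM in Negative cells, 14522, 16494 and 14167 in Sublow, 17961, 19483 and 17166 in Low and 13201, 12789.8 and 13163 in High. let-7d-5p had 6719, 7009 and 7021 RPM in Negative cells, 13242, 13749 and 12750.1 in Sublow, 16094, 17489 and 15853 in Low and 11488, 10371 and 10789 in High. let-7f-1-5p had 8816, 8627 and 8509 RPM in Negative cells, 16144, 17241 and 17648 in Sublow, 18730, 22769 and 18106 in Low and 13659.6, 13665 and 13451 in High. In all 3 the RPM order was Negative, High, Sublow and Low, with no overlap between any pair of populations. The share of all entries without such overlap was not counted. High against Sublow was not called for let-7a-1-5p (-0.20, adjusted p = 0.0585), nor Sublow against Low for let-7f-1-5p (-0.22, adjusted p = 0.0713). Negative against Low was -1.16, -1.25 and -1.19 for let-7a-1-5p, let-7d-5p and let-7f-1-5p (adjusted p of 3.22e-08 to 2.03e-07). High against Low was -0.48, -0.60 and -0.54 for the same members (adjusted p of 8.91e-05 to 0.00124). After median-ratio rescaling all 3 had a higher mean in Sublow than in Low cells. The means were 14447 and 13267 for let-7a-1-5p, 12717 and 12011 for let-7d-5p, and 16335 and 14476 for let-7f-1-5p. The second let-7a copy differed from let-7a-1-5p by at most 1.84% in any library, and let-7f-1-5p shares its mature sequence with let-7f-2-5p. Of these 3 entries only let-7d-5p can therefore be credited to the cluster.

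let-7f-2-5p and miR-98-5p, entries whose hairpins are neighbours on the X chromosome, had unequal values. let-7f-2-5p shares its mature sequence with let-7f-1-5p, so its level cannot be credited to the X chromosome hairpin. let-7f-2-5p had means of 9284 ± 140.8 RPM in Negative, 18229 ± 778 in Sublow, 21368 ± 2669 in Low and 15503 ± 327 in High cells (SD, n = 3 each), 6.30 to 15.4% above let-7f-1-5p, whose mature sequence it shares. miR-98-5p was the least abundant member, with 1460, 1431 and 1473 RPM in Negative cells, 2141, 2316 and 2646 in Sublow, 2607, 3275 and 2737 in Low and 1863, 1653 and 1984 in High. Its Sublow and Low libraries overlapped (-0.28, adjusted p = 0.0704), and the other pairs of sorted populations did not.

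let-7g and let-7i, the members encoded outside clusters, moved apart. let-7g-5p had 12931, 12646 and 12882 RPM in Negative cells, 18627, 18793 and 19863 in Sublow, 16136, 18047 and 17674 in Low and 13738, 10657 and 12465 in High. In RPM it was the one member with its highest mean in Sublow cells. Every library there lay above every Low library, though the difference of 0.14 did not pass the test (adjusted p = 0.362). After median-ratio rescaling let-7a-1-5p, let-7d-5p, both let-7f copies and miR-98-5p also had their highest means in Sublow. For let-7f-2-5p these were 17504 in Sublow and 15569 in Low. The Negative and High libraries of let-7g-5p overlapped in RPM (High against Negative -0.07, adjusted p = 0.618). let-7i-5p had 5152, 5624 and 5052 RPM in Negative cells, 9058, 12200.2 and 12123 in Sublow, 14797, 18975 and 17588 in Low and 9777, 9408 and 10242 in High. It had the largest fall of the 10 in Negative against Low, -1.69 (adjusted p = 2.03e-07), where let-7g-5p had the smallest, -0.43 (adjusted p = 0.00663).

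**Figure D2:**
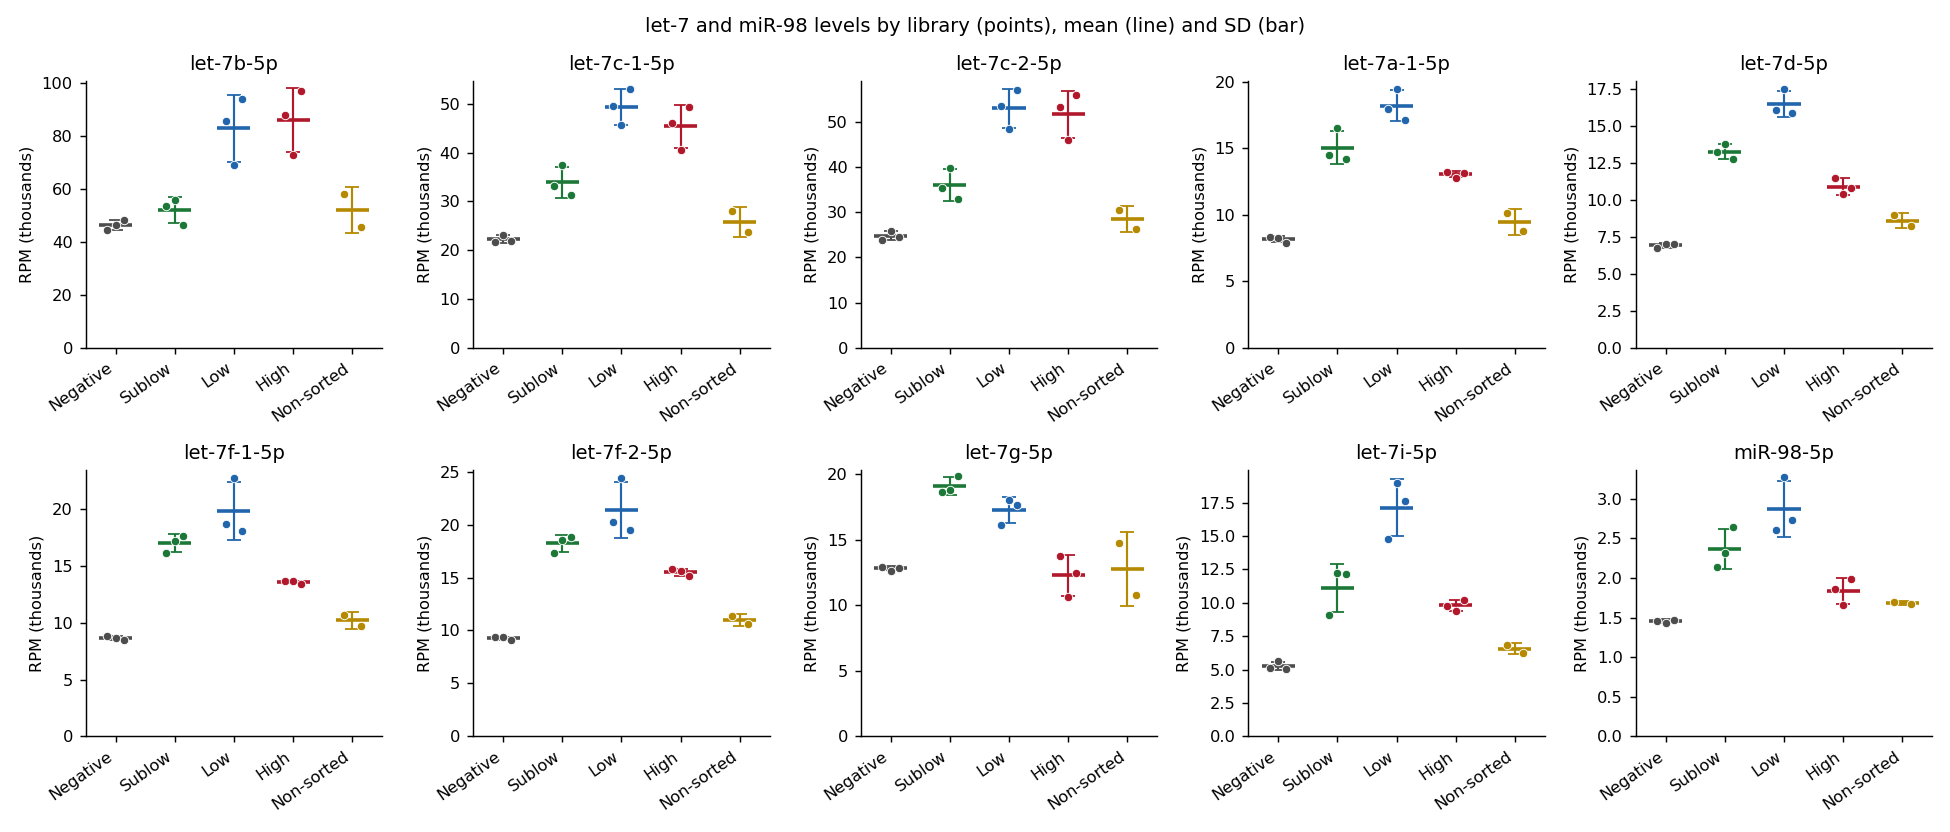
Level of each member in RPM by library, with panels on separate linear axes from 0. Points are libraries, lines means and bars SD. On this scale let-7b and let-7c are about as high in High as in Low cells. let-7a, let-7d, let-7f, let-7i and miR-98 peak in Low cells, and let-7g peaks in Sublow cells. After median-ratio rescaling let-7a, let-7d, let-7f and miR-98 also have their highest means in Sublow cells.

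Among members the order of levels held from population to population except in the middle. All mature members are 22 bases long, so RPM compare them per molecule, within the ligation preferences of a small RNA kit. The order is that of entries, and let-7a, let-7c and let-7f could stand higher if their reads were split between copies. let-7b-5p, let-7c-2-5p and let-7c-1-5p took the first 3 places and miR-98-5p the last in all 5 groups. let-7g-5p stood 4th in Negative, Sublow and Non-sorted means and 7th in Low and High means, behind both let-7f copies and let-7a-1-5p. In Low cells let-7a-1-5p, let-7g-5p, let-7i-5p and let-7d-5p lay at 16478 to 18203 RPM as means, and their library ranges overlapped from neighbour to neighbour.

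Many of these calls depended on the scaling of the libraries, with let-7i and let-7g at the ends. Median-ratio rescaling moved the median of all entries by 0.84 in Negative against Low, 0.39 in Sublow against Low, 0.32 in High against Low and -0.52 in High against Negative. let-7i-5p stayed lower in Negative than in Low cells under all 4 scalings (-1.69 in RPM, -0.82 by median ratio, -0.56 by quantiles and -0.71 with the total without miR-192, miR-194 and miR-215). let-7g-5p reversed in the same comparison, to 0.45, 0.52 and 0.55, each past the threshold. In Sublow against Low let-7g-5p was higher on all 4 scales, from 0.14 in RPM to 0.81 by quantiles, and past the threshold on the last 3. In Negative against Low 6 members stayed lower and 1, let-7g-5p, was higher after median-ratio rescaling. Of the 588 entries, 131 were lower and 136 higher there. In High against Negative 4 members were higher (let-7b-5p, both let-7c copies and let-7i-5p) and 1, let-7g-5p, was lower. Of all entries, 193 were higher and 172 lower there.

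**Figure D3:**
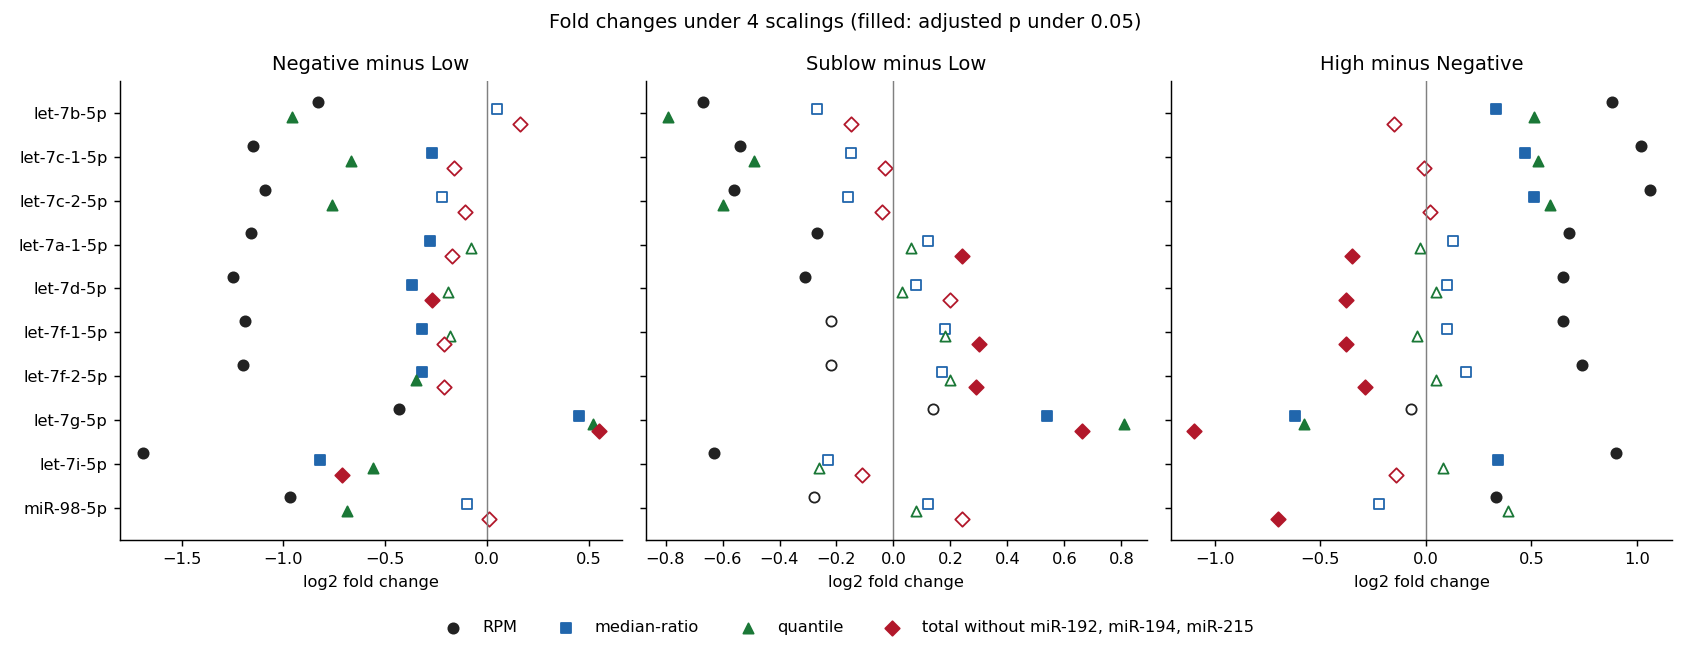
Log2 fold change (horizontal axis) of each member (rows) in 3 comparisons under 4 scalings of the libraries. Filled symbols passed an adjusted p of 0.05 and open ones did not. RPM values lie furthest to the left in Negative minus Low for all members but let-7b-5p, and let-7g-5p alone moves to above 0.4 there under each other scaling.

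Shares within the family do not depend on the library total. They do depend on averaging the copies, and let-7a, let-7c and let-7f would hold larger parts if reads were split between copies. The members make up the sum, so a larger part for some means a smaller part for others. Entries outside the family are not bound in this way. The percentages of entries given here and below are therefore no like-for-like background for the relative calls of members. Fitted relative to the family sum, all 10 members differed among the sorted populations, where 60.0% of entries did, and 4 of 10 did with the lane term. let-7b made up 40.04, 40.38 and 42.02% of the sum in Negative libraries, 33.0, 31.8 and 29.3% in Sublow, 38.1, 31.8 and 39.3% in Low and 43.5, 41.5 and 45.5% in High. Together let-7b and let-7c held 61.6% ± 0.867 of the sum in Negative, 52.5% ± 2.50 in Sublow, 59.0% ± 4.82 in Low and 68.2% ± 2.12 in High. In High against Sublow, let-7b-5p (0.47), let-7c-1-5p (0.17) and let-7c-2-5p (0.27) took a larger part and the other 7 members a smaller one (-0.42 for let-7i-5p to -0.89 for let-7g-5p), against 21.8% and 28.2% of entries called. With the lane term, let-7g-5p (adjusted p = 0.00404) and miR-98-5p (-0.83, adjusted p = 0.0463) kept their calls there and the other 8 members did not, let-7b-5p having an adjusted p of 0.0544. The let-7c-1-5p call was also lost in 6 of the 14 fits that left out a library, and the let-7i-5p call in 3. In Negative against Sublow, 5 members took a smaller part (let-7a-1-5p, let-7d-5p, both let-7f copies and let-7i-5p, -0.34 to -0.52) and let-7b-5p a larger one (0.38, adjusted p = 0.0055), against 9.86% and 12.8% of entries.

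let-7g took a larger part of the family in the dimmer populations. Its share was 11.67, 11.01 and 11.26% in Negative libraries, 11.5, 10.7 and 12.6% in Sublow, 7.20, 8.32 and 7.41% in Low and 6.79, 6.07 and 5.87% in High. The Negative and Sublow libraries overlapped with each other and lay above every Low and High library. It was the one member called larger relative to the sum in Negative against Low (24.1% of entries were) and in Sublow against Low (15.1%), where 19.4% and 9.35% of entries, 2 members (let-7d-5p and let-7i-5p) and 0 members were called smaller. The relative change was 0.57 ± 0.09 (SE) in Negative against Low (adjusted p = 0.000267), 0.60 ± 0.09 in Sublow against Low (adjusted p = 0.000458) and -0.86 ± 0.09 in High against Negative (adjusted p = 6.06e-06). With a term for lane these calls held, at adjusted p of 0.00654, 0.00857 and 0.0037. In lane L005 alone the let-7g share was 11.3% in the Negative library, 12.04% as the mean of 2 Sublow libraries and 7.20% in the Low library.

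let-7i took a smaller part in Negative and High cells than in Low cells. Its share was 4.65, 4.90 and 4.41% in Negative libraries, 5.60, 6.94 and 7.66% in Sublow, 6.60, 8.75 and 7.37% in Low and 4.83, 5.36 and 4.82% in High. Negative and High libraries overlapped, as did Sublow and Low libraries. The relative change was -0.69 ± 0.13 in Negative against Low (adjusted p = 0.000732), -0.52 ± 0.13 in Negative against Sublow (adjusted p = 0.00958) and -0.59 ± 0.13 in High against Low (adjusted p = 0.00614). With the lane term Negative against Low no longer passed (-0.57, adjusted p = 0.0627). let-7g-5p over let-7i-5p, mature sequences 2 bases apart, was 2.51, 2.25 and 2.55 in Negative libraries, 2.06, 1.54 and 1.64 in Sublow, 1.09, 0.951 and 1.005 in Low and 1.41, 1.13 and 1.22 in High. On this ratio no pair of sorted populations overlapped, and Non-sorted cells had 2.16 and 1.72.

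**Figure D4:**
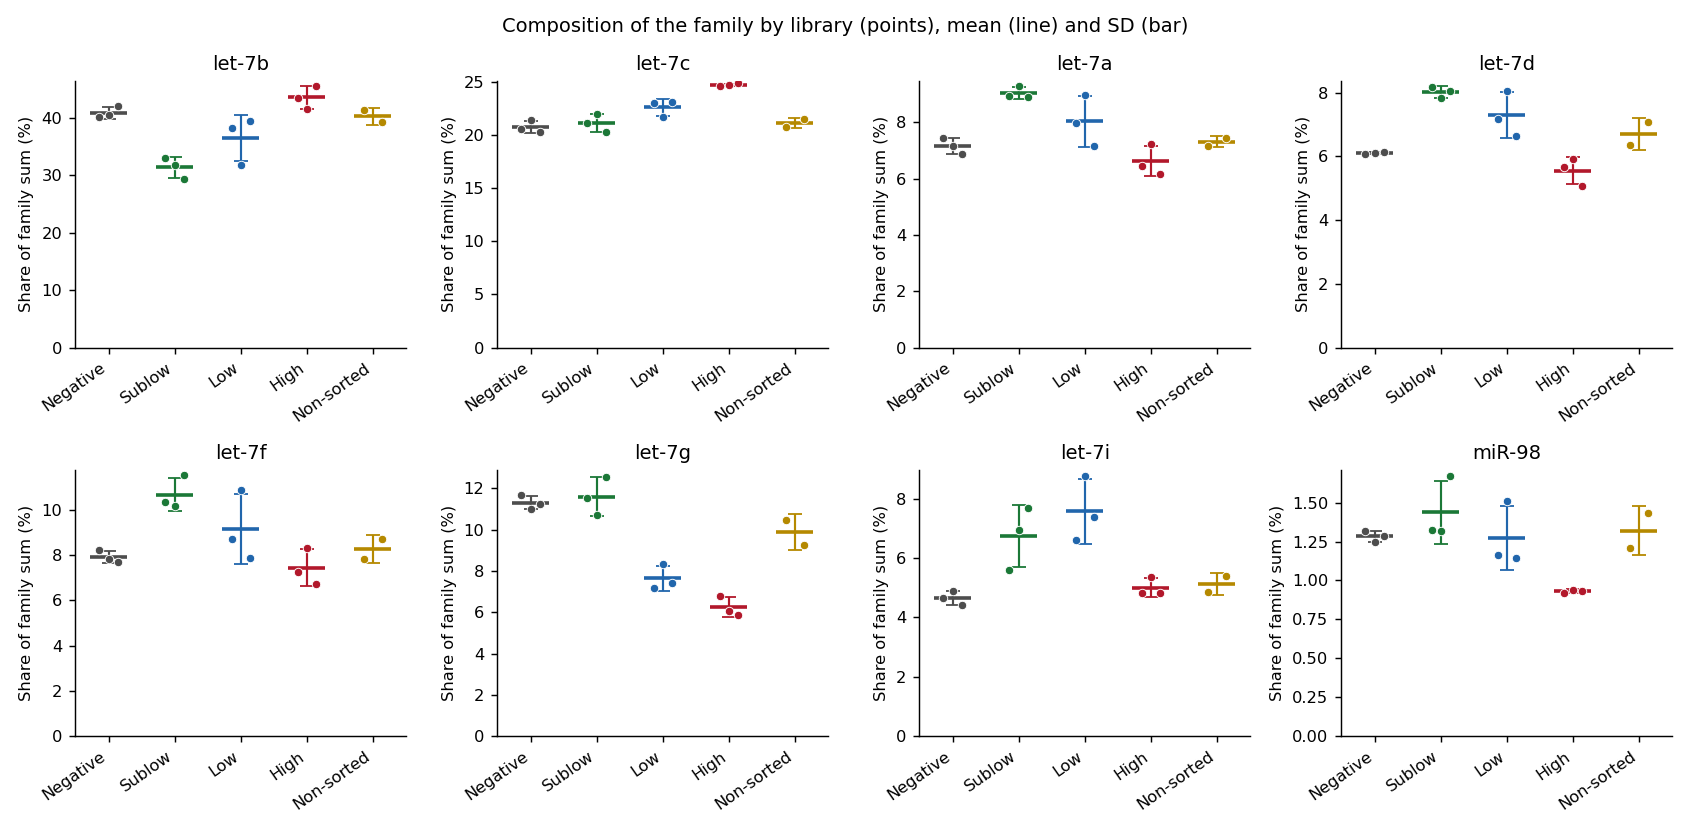
Share of the family sum (%) of each mature member by library, with panels on separate axes from 0. Points are libraries, lines means and bars SD. let-7g holds 11.3% in Negative and 11.6% in Sublow cells against 7.64% in Low and 6.24% in High, let-7i is highest in Low, and let-7b is lowest in Sublow.

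Of the 29 relative calls of members in pairs of sorted populations, 10 were kept with the lane term. In High against Negative, let-7c-1-5p (0.23, adjusted p = 0.00465) and let-7c-2-5p (0.27, adjusted p = 0.00258) took a larger part and miR-98-5p, like let-7g-5p, a smaller one (-0.46, adjusted p = 0.00861), against 28.4% and 32.3% of entries. Of these let-7g-5p passed with the lane term and the others did not. let-7c had 24.6, 24.7 and 24.8% of the sum in High libraries, against 20.6, 21.4 and 20.3% in Negative libraries, and these did not overlap. In High against Low, let-7b-5p took a larger part (0.26, adjusted p = 0.0439) and let-7d-5p, let-7g-5p, let-7i-5p and miR-98-5p a smaller one, against 10.4% and 13.1% of entries. That let-7b-5p call was lost in 10 of the 14 fits that left out a library, and the let-7g-5p call (-0.29, adjusted p = 0.0377) in 8 of them. With the lane term let-7i-5p alone kept its call there (-0.66, adjusted p = 0.0197).

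The let-7d hairpin changed the balance of its arms. The other strand of this hairpin, at chr13:48536024-48536045 in GRCm38.p6, is shown because its level carries the change, again with its seed in capitals, which is not the seed of the 5p family.
let-7d-3p: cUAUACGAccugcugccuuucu

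In Negative libraries let-7d-3p had 90.4, 149.6 and 112 RPM and in Sublow libraries 125.2, 255.6 and 167.1 RPM. In Low libraries it had 932, 610 and 781 RPM and in High libraries 685, 752 and 999 RPM. Every Low and High library lay above every Negative and Sublow library, and Non-sorted cells had 169.6 and 221 RPM. let-7d-3p fell by 2.12 on the log2 scale in Sublow against Low (adjusted p = 0.000146), where let-7d-5p fell by 0.31. It fell by 2.72 in Negative against Low (adjusted p = 4.4e-06), where let-7d-5p fell by 1.25. Its direction and call held under all 4 scalings.

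As a share of let-7d-5p in the same library, let-7d-3p was 1.35, 2.13 and 1.60% in Negative, 0.946, 1.86 and 1.31% in Sublow, 5.79, 3.49 and 4.92% in Low and 5.96, 7.25 and 9.26% in High. The log2 ratio of 5p over 3p was higher by 1.80 ± 0.31 (SE) in Sublow against Low (adjusted p = 0.00441) and by 1.47 ± 0.31 in Negative against Low (adjusted p = 0.00613), calls made for 4.62% and 10.8% of the 65 hairpins tested. The difference was -2.14 ± 0.31 in High against Negative (adjusted p = 0.000277) and -2.47 ± 0.31 in High against Sublow (adjusted p = 0.000132), lower ratios being called for 13.8% and 12.3% of hairpins. let-7d was the only one of the 4 testable family hairpins with a call in the F test (adjusted p = 0.000208), where 29.2% of hairpins had one. All 4 of its pair calls were kept with the lane term and with each library left out. In lane L005 the 3p share was 1.60% in the Negative library, 1.13% as the mean of 2 Sublow libraries and 5.79% in the Low library.

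**Figure D5:**
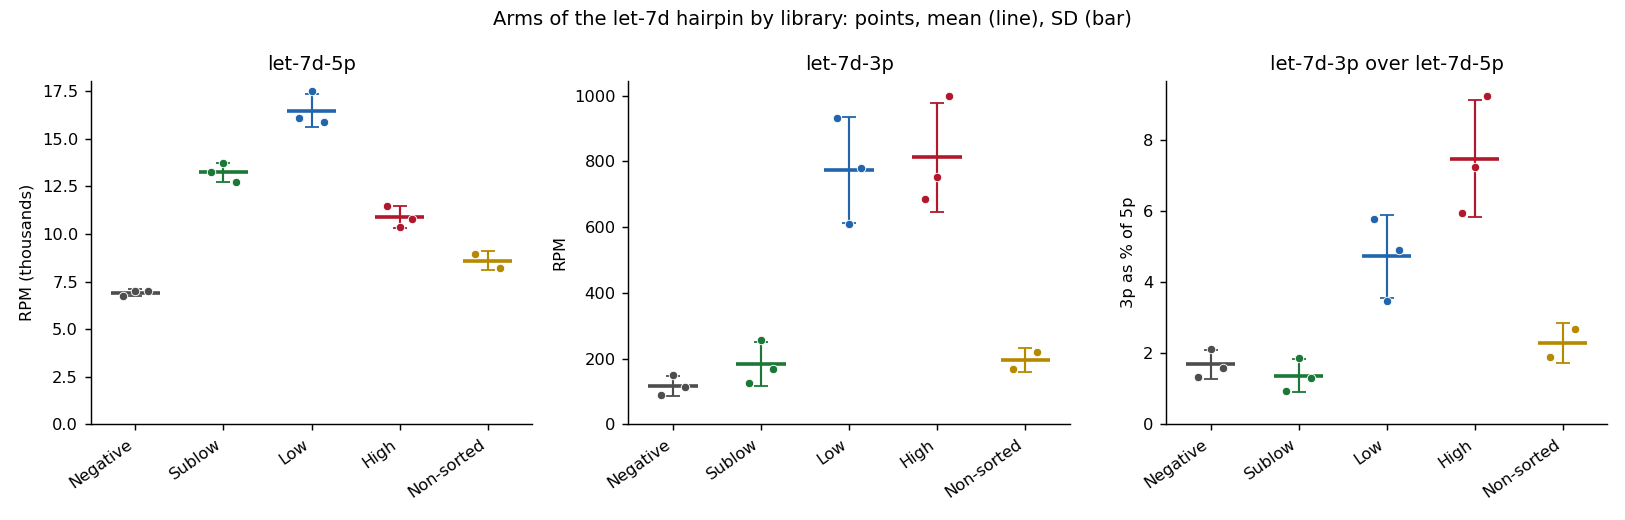
let-7d-5p and let-7d-3p in RPM and let-7d-3p as a percent of let-7d-5p, by library, on axes from 0. Points are libraries, lines means and bars SD. The 3p share is 1.69% in Negative and 1.37% in Sublow cells, against 4.74% in Low and 7.49% in High.

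The other 3p arms were close to the detection limit. let-7a-1-3p and let-7c-2-3p share a sequence and were listed at 10.5 to 25.7 RPM in the sorted libraries, with the same value in 13 of 14 libraries, and let-7b-3p at 3.46 to 17.2 RPM. Their 5p over 3p ratios did not pass the F test (adjusted p of 0.206 to 0.523). let-7i-3p was at 0 in every library, and let-7f-1-3p, let-7f-2-3p and miR-98-3p reached at most 3.66 RPM.

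miRNAs made from hairpins beside the family were far lower than the entries named for the members next to them. The let-7a and let-7c values cannot be credited to one copy. miR-99a-5p, beside let-7c-1, averaged 1.68 RPM in Sublow, 15.7 in Low and 5.60 in High and was listed at 0 in the 3 Negative libraries, whereas let-7c-1-5p averaged 22277 RPM there. miR-100-5p and miR-125b-1-5p, on either side of let-7a-2, reached at most 1.12 and 2.73 RPM. let-7e-5p, which differs from let-7a by U9G, averaged 64.6 ± 13.6 RPM in Negative, 366 ± 54.2 in Sublow, 1945 ± 300.3 in Low and 3034 ± 116 in High (SD, n = 3 each). Its neighbours miR-99b-5p and miR-125a-5p averaged 13.8 and 4.45 RPM in Negative and 431 and 342 RPM in High. In Negative libraries let-7e-5p equalled 0.0433 to 0.0661% of the family sum, which caps the part of family reads that could have been listed as let-7e there.

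Reads of the members also appeared at shifted 5′ starts, which move the seed. The table gives the shift as a signed suffix whose direction is not stated in the sources used here. Of 101 shifted entries of the members, 88 were above 0 in some library and 40 could be tested. Shifted forms made up 1.16 to 1.70% of let-7b-5p over all its starts and 6.37 to 8.42% of let-7g-5p, the highest of the 10. Most of the latter was at +1, which stood at 6.02 to 8.12% of the annotated-start value. let-7d-5p alone had over 1% of its annotated-start value at -1, 1.37 to 1.92% in every library. Of the 40 ratios of shifted to annotated start, 6 had an unadjusted p under 0.05, which was not counted over all 297 ratios. Only 1 passed the F test, let-7b-5p at +7 (adjusted p = 0.0365), where 8.42% of 297 ratios did. That form made up 0.00769 to 0.0226% of let-7b-5p in Negative, 0.00403 to 0.0154% in Sublow, 0.00898 to 0.0272% in Low and 0.0483 to 0.0740% in High. The call was lost with a lane term and in 5 of the 14 fits that left out a library.

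Across the 12 sorted libraries, Pearson's r of a member with the family sum, on the log2 scale, was 0.769 to 0.992 for 9 members and 0.35 for let-7g-5p. These libraries share the fixed total and the population differences, so the values only describe. Of 259 other miRNAs, those most like the family sum were miR-455-3p (r = 0.977), miR-342-5p (0.966), miR-181d-5p (0.95), miR-200c-3p (0.949) and miR-146b-5p (0.946). Those most like let-7g-5p were miR-26b-5p (0.893), miR-674-3p (0.889), miR-106b-3p (0.863), miR-221-3p (0.858) and miR-152-3p (0.853). Some reached down to the smallest listed values, which were 0.62 to 5.55 RPM by library. miR-455-3p averaged 36.02 RPM in Low and 0 in Negative cells, and miR-674-3p 21.35 and 6.03 RPM. Pearson's r does not compare the size of changes, and miR-342-5p averaged 147.7 RPM in Low and 13.65 RPM in Negative cells. miR-26b-5p averaged 7363 RPM in Negative, 11647 in Sublow, 10739 in Low and 7952 in High, with its highest mean in Sublow as let-7g-5p had.

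Negative cells were set against Non-sorted cells as well. limma called 0 members higher and 0 lower, against 0% and 3.74% of all entries. An unadjusted p under 0.05 was seen for 5 members, both let-7f copies among them. It was not counted over all entries, so that number has no background. let-7d-5p had 6719, 7009 and 7021 RPM in Negative libraries, against 8958 and 8232 RPM in Non-sorted libraries, which did not overlap (-0.31, adjusted p = 0.0551). let-7g-5p had 12931, 12646 and 12882 RPM in Negative libraries, against 14770.4 and 10796 RPM in Non-sorted libraries, which lay on both sides of them.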

How the data were processed

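Small RNA libraries were prepared with the TriLink CleanTag kit, per the labels' protocols, and the genome build is mm9 per the submitters' processing notes. Aligner and treatment of multi-mapped reads were not given in the sources used here. The authors deposited 1 table of RPM values over miRNA entries, in which every library has the same total and shifted 5′ starts have entries of their own. Copies of a mature sequence have separate, similar values, and whether their reads were split or counted for each copy was not given.

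Values were analysed as log2(RPM + 1), a scale that understates fold changes of low entries. Entries with at least 10 RPM in at least 3 libraries (588) were fitted with limma 3.58.1 in R 4.3.3, with 5 groups over 14 libraries and a mean-variance trend. Tests were two-sided, adjusted by Benjamini-Hochberg over all tested entries, at a threshold of 0.05. The same model was fitted to values relative to the family sum (copies averaged), to 5p over 3p ratios of 65 hairpins and to 297 ratios of shifted to annotated starts. The procedure was tested on simulated data. Depth was estimated from the steps between low values, of which 70.1 to 86.4% were whole reads within 0.1 read, too few for a count model. Figures used matplotlib 3.10.9 in Python 3.11.15. RefSeq GRCm38.p6 gave sequences and positions, and coordinates were not moved to mm9.

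The members, the lists and the rule for named miRNAs (all members, their other arms, shifted forms and neighbours, let-7e, and the 5 miRNAs most correlated with the family sum and with the member least like it) were chosen with earlier results of these data known. Alternatives were other scalings, pseudocounts of 0.1 and 10, no filter, no trend, terms for replicate number, lane and miR-295-3p, summed copies, and each library left out.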

Additional observations from a re-analysis of the deposited data

Results flagged for a closer look

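Entries of the members with the suffix -4 were listed in a few libraries. Of 9 such entries, 2 passed the filter and were among the 40 ratios tested above. They summed to 80.5 RPM in High replicate 1, 344 RPM in High replicate 2, 55.9 RPM in Low replicate 2 and 85.2 RPM in Low replicate 3, and were at 0 in the other 10 libraries, Non-sorted included. These 4 libraries are the ones labelled with lane L000. The forms made up at most 0.147% of the members' reads in a library. Entries with this suffix were not particular to the members: over all miRNAs, 39 to 77 of 104 were above 0 in those 4 libraries, against 3 to 19 in the others.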

How the results depend on the processing

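Scaling moved the counts of members called in pairs of populations. With median-ratio rescaling, High against Low had 2 members higher and 2 lower (81 and 70 of all 588 entries). Sublow against Low had 1 and 0 (86 and 68) and Negative against Low 1 and 6 (136 and 131). High against Negative had 4 and 1 (193 and 172), and Negative against Sublow 5 lower (68). With quantile normalization, High against Low had 2 lower (80 of all entries) and Sublow against Low 1 higher and 3 lower (82 and 77). Negative against Low had 1 and 6 (119 and 166) and Negative against Sublow 4 lower (91). High against Negative had 3 and 1 (205 and 158), High against Sublow 3 lower (154) and Negative against Non-sorted 1 lower (19). With the total taken without miR-192, miR-194 and miR-215, Sublow against Low had 4 higher and 0 lower, Negative against Low 1 and 2, Negative against Sublow 5 lower, High against Negative 0 and 6, and High against Sublow 0 higher. Values that reversed were, by median ratio, let-7d-5p 0.08 and let-7a-1-5p 0.12 in Sublow against Low, let-7b-5p 0.05 and let-7g-5p 0.45 in Negative against Low, miR-98-5p -0.22 in High against Negative, and the family sum 0.12 in High against Low. By quantiles they were let-7d-5p 0.03 and let-7a-1-5p 0.06 in Sublow against Low, let-7g-5p 0.52 in Negative against Low, and let-7a-1-5p -0.03 and let-7f-1-5p -0.04 in High against Negative. Without the 3 miRNAs they were let-7d-5p 0.20 and let-7a-1-5p 0.24 in Sublow against Low, and let-7b-5p 0.16, let-7g-5p 0.55 and miR-98-5p 0.01 in Negative against Low. In High against Negative they were let-7a-1-5p -0.35, let-7b-5p -0.15, let-7c-1-5p -0.01, let-7d-5p -0.38, let-7f-1-5p -0.38, let-7f-2-5p -0.29, let-7i-5p -0.14 and miR-98-5p -0.70, in High against Sublow let-7c-1-5p -0.15 and let-7c-2-5p -0.04. The family sum was then 0.06 in Sublow against Low, -0.24 in High against Negative and -0.32 in High against Sublow. With the lane term, Sublow against Low had 3 lower, High against Sublow 0 higher and 1 lower, the relative F test called 4 of 10 members and the shifted ratios 0 of 40. High against Sublow had 3 lower without the filter and 1 without the trend. A pseudocount of 10 gave calls for 4 of 4 hairpins and 9 shifted ratios, a pseudocount of 0.1 gave 0 shifted ratios, and the miR-295-3p term 5. With one library left out, members lower in High against Sublow ranged from 3 to 6, lower in Negative against Non-sorted from 0 to 1, and shifted ratios called from 0 to 2. No named value reversed when a library was left out. The replicate block kept 56 of 57 calls of single values. Same-numbered libraries had correlated deviations of -0.35 to 0.78 (median 0.32, 16 of 26 pairs over 0.1), and different-numbered ones of -0.84 to 0.71 (median -0.11, 11 of 52 over 0.1). The 6 pairs of sorted libraries numbered 2 were at 0.57 to 0.75, but Negative replicate 1 correlated best with Sublow replicate 2 (0.71). The numbers match a prefix shared in the sample descriptions, whose meaning the labels do not give. Since not every pair was over 0.1, the numbers were not taken to pair the samples, though the values are a hint that some do. Beyond these constructions the cause was not tested.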
